A study of Homo sapiens with 12 samples.

Results

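The 9 genes described here take part in the making of haem: the 5-aminolevulinate synthases ALAS1 and ALAS2, the enzymes ALAD, UROS, UROD, CPOX, PPOX and FECH of later steps, and the mitochondrial carrier SLC25A39. They were chosen by name from a pathway, at a time when their FPKM values in these 12 libraries were already known, and no value threshold was applied. All 9 were among the 20036 genes of the deposited table and all 9 were among the 11149 genes that passed the filter on low values. Their levels and changes are therefore a description of these libraries, and whether a gene passed the threshold is given as part of that description.

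RNA came from MV-4-11 cells, an established line of human acute myeloid leukaemia with an activating internal duplication in FLT3 and a KMT2A fusion, labelled as wild type in genotype and as bone marrow in tissue. The 4 groups of 3 libraries were cells given DMSO, the solvent; (1R,3S)-HPA-12, which blocks CERT, the carrier of ceramide to the Golgi; crenolanib, which blocks the FLT3 kinase; and both compounds together. The series text gives 48 h for the treated groups, while doses and the time of the DMSO group are not known here. All groups are 1 cell line. Nothing in the labels tells of separate cultures within a group, so errors and p-values cover the spread among the sequenced libraries alone and may be technical.

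Haem is an iron-porphyrin that carries oxygen in haemoglobin and electrons in cytochromes. Its synthesis starts in the mitochondrion, where glycine and succinyl-CoA are joined to 5-aminolevulinate, continues through cytosolic steps that build and close the porphyrin ring, and ends in the mitochondrion, where iron is inserted. ALAS1 is the synthase of most tissues and is held back by haem itself, whereas ALAS2 is the X-linked synthase of red cell precursors, driven by erythroid transcription factors and by the supply of iron. In erythroid cells the whole pathway is raised to meet the demand of haemoglobin.

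The libraries differed in depth and make-up. Depth, estimated from the smallest FPKM steps, was 13.6 to 15.99 M reads for DMSO libraries, 12.1 to 12.8 M for HPA-12, 10.1 to 10.2 M for crenolanib and 4.40 to 5.07 M for the combination. The 13 mitochondrially encoded genes held between 19.6% and 22.1% of the FPKM sum with DMSO or HPA-12, 35.9% to 36.2% under crenolanib and 61.6% to 62.6% with the combination. Between 7894 and 8049 genes were listed at 0 in the combination libraries, against 4792 to 5217 in the others. Markers of the line were present in every group, with 0 of 11 myeloid markers at 0. Their summed level was 1315 to 1326 FPKM for DMSO, 725 to 745 for HPA-12, 1107 to 1126 for crenolanib and 740 to 786 for the combination. The sums of HPA-12 and combination libraries overlapped, which does not make the groups alike gene by gene. Of the 11 markers, 3 were called higher and 7 lower in the combination than with HPA-12, beside 14.5% and 57.8% of all genes. Their median log2 change there was -0.95, beside -0.64 for all genes. Under median-ratio scaling 3 were higher and 6 lower. The summed level of 13 erythroid markers, among them globins, GATA1, KLF1 and SLC4A1, was 76.4 to 84.5 FPKM with DMSO, 212 to 219 with HPA-12, 4188 to 4447 under crenolanib and 25823 to 26181 with the combination. The 6 megakaryocytic markers summed to 4.23 to 4.70 FPKM for DMSO, 7.55 to 9.90 for HPA-12, 6.67 to 8.32 for crenolanib and 5.06 to 12.5 for the combination. PF4 was listed at 0 in all groups, and 1 of the 2 tested, ITGA2B, rose with crenolanib (0.89) and the combination (1.08). The summed level of 6 lymphoid markers lay between 2.37 and 7.75 FPKM over all groups. Of 7 stromal and epithelial markers, 3 were tested. All 7 summed to 15.3 to 17.0 FPKM for DMSO and 62.8 to 65.8 for HPA-12. The sum was 26.9 to 30.9 FPKM for crenolanib and 9.21 to 19.8 for the combination. Most of these sums came from PECAM1. In bulk RNA, more cells of a type and more RNA per cell cannot be told apart.

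ALAS1 and ALAS2 moved in opposite directions. ALAS1 (ENSG00000023330) had 49.7, 49.8 and 50.3 FPKM in the DMSO libraries, 25.9, 24.8 and 25.8 with HPA-12, 24.4, 25.0 and 27.8 with crenolanib, and 13.4, 13.8 and 5.83 with the combination. The DMSO libraries were the highest and those of the combination the lowest, while the HPA-12 and crenolanib libraries overlapped. On the log2 scale of FPKM plus 1, used for every change below, ALAS1 fell by 0.94 ± 0.23 (SE) with HPA-12 and by 0.93 ± 0.23 with crenolanib. Each SE here and below rests on 1 spread per gene shared by the 4 groups, not on the spread of the groups compared. For ALAS1 the SD was 40.9% of the mean in the combination and 0.616% with DMSO. With the combination ALAS1 fell by 2.16 ± 0.23 against DMSO. The median of all genes there was -0.62, so that ALAS1 differed from that median by -1.54. Combination library 3 lay below the other two, and without it the change was -1.80.

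ALAS2 (ENSG00000158578) had 4.61, 4.25 and 3.79 FPKM with DMSO and 6.76, 6.69 and 7.95 with HPA-12. Crenolanib libraries held 99.6, 84.0 and 88.7 FPKM and combination libraries 747, 693 and 695. All 4 groups were separate, in the order DMSO, HPA-12, crenolanib, combination. Group means were 4.22 ± 0.414 (SD, n = 3), 7.13 ± 0.709, 90.8 ± 7.99 and 712 ± 30.8 FPKM, which puts crenolanib at 21.5 times and the combination at 169 times the DMSO mean. ALAS2 rose by 0.64 ± 0.09 with HPA-12, 4.14 ± 0.09 under crenolanib and 7.10 ± 0.09 with the combination. The estimated reads behind these values ran from 112 to 157 per DMSO library and from 6826 to 7493 per combination library.

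**Figure D1:**
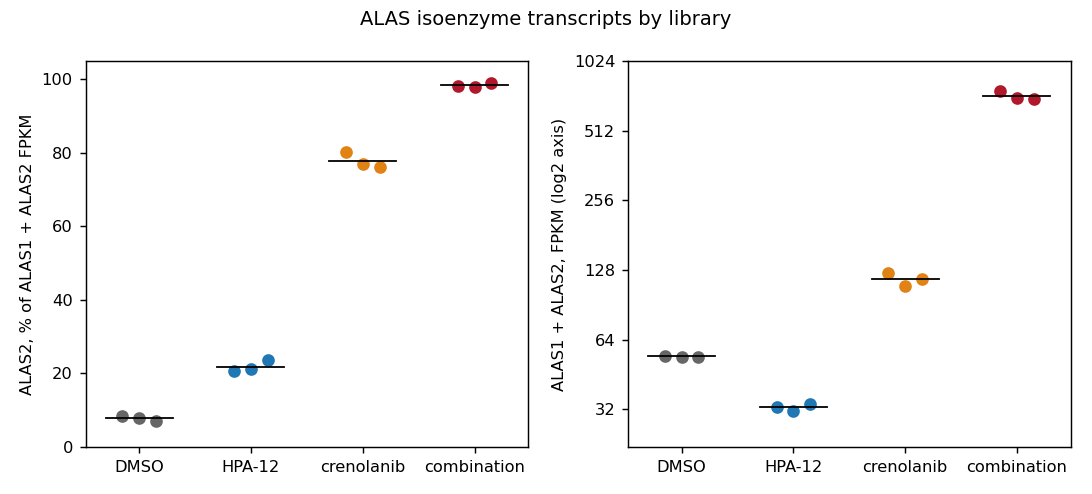
The left panel plots ALAS2 as a percentage of the summed FPKM of ALAS1 and ALAS2, and the right panel that sum in FPKM on a log2 axis, for the 3 libraries (points) and the mean (line) of each group. ALAS2 went from 7.01% to 8.50% of the sum in DMSO libraries to between 98.0% and 99.2% in combination libraries.

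FPKM is scaled by gene length, so the levels of both synthases can be set side by side. ALAS2 made up 7.79 ± 0.748% (SD, n = 3) of their summed FPKM with DMSO, 21.8 ± 1.49% with HPA-12, 77.8 ± 2.19% under crenolanib and 98.5 ± 0.604% with the combination. The sum itself was 54.1 ± 0.124 FPKM with DMSO, 32.6 ± 1.14 with HPA-12, 117 ± 7.48 under crenolanib and 723 ± 33.0 with the combination. HPA-12 libraries thus had the lowest summed level and, at the same time, a larger ALAS2 share than DMSO. The plot of the ALAS2 share by library shows the 4 groups without overlap in both measures.

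The sequence before the transcription start of the synthases is shown here because these genes moved apart, with that of CPOX, a later enzyme, for comparison. RefSeq's promoter table (GRCh38.p14) held 8 of the 9 genes, with 10 starts, but not UROS. The 250 bases before each start were searched on both strands for a GATA motif (AGATAA or TGATAA, or either with G as its last letter), the form bound by GATA factors, which is in capitals below. ALAS2 lies on the minus strand at chrX:55030978-55031227, ALAS1 on the plus strand at chr3:52197833-52198082, and CPOX on the minus strand at chr3:98593612-98593861 (each the window before the start, written 5′ to 3′ on the strand of the gene).
ALAS2: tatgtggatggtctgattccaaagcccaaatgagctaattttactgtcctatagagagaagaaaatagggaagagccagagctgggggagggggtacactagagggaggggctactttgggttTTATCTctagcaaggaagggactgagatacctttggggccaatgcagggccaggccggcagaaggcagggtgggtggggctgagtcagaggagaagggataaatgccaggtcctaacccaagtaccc
ALAS1: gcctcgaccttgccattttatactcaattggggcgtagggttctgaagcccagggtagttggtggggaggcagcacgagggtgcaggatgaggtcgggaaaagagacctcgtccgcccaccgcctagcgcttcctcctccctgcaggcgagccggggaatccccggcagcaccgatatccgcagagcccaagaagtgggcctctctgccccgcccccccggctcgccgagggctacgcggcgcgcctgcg
CPOX: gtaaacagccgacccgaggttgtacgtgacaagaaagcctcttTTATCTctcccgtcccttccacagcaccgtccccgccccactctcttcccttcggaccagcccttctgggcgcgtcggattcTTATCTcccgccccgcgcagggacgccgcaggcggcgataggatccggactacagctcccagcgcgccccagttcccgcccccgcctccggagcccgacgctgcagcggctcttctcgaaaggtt

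The ALAS2 window held 1 GATA match, beginning 127 bases before the start on the reverse strand, and the ALAS1 window held 0. CPOX had 2, at 207 and 125 bases, and ALAD and PPOX had 1 each at the second of their 2 starts, which makes 4 of 10 starts, against 22.3% of the 35116 promoter windows in the table. UROD, FECH and SLC25A39 had no match in these 250 bases. The CACCC box (CACCC), a form bound by Kruppel-like factors, was in 5 of 10 starts (54.7% of all windows), with 2 overlapping matches in ALAS2, and the GC-rich SP site (GGGCGG) was in 8 of 10 (42.6%), though not in ALAS2. TGAGTCA was found once, in ALAS2 (4.20% of windows). TATAAA was found once, in ALAS1 (10.7%), on the reverse strand and beginning 234 bases before the start. The E-box CACGTG (6.34%) and GCGCATGC, the core bound by NRF1 (2.63%), were in 0 of 10. A match is a run of letters and not evidence of binding.

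The cytosolic enzymes ALAD, UROS and UROD did not move alike under the single compounds and were all highest on average with the combination. ALAD (ENSG00000148218), which joins pairs of 5-aminolevulinate into porphobilinogen, had 18.2, 18.4 and 18.5 FPKM with DMSO, 27.3, 25.1 and 25.9 with HPA-12, 18.0, 18.7 and 17.5 with crenolanib, and 40.7, 32.9 and 38.7 with the combination. It rose by 0.48 ± 0.09 with HPA-12 and by 0.98 ± 0.09 with the combination. Crenolanib and DMSO libraries overlapped, with a change of -0.02 ± 0.09 that did not pass and that was 0.10 once mitochondrial genes were dropped from the total.

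UROS (ENSG00000188690) closes the ring into uroporphyrinogen III. It had 9.58, 8.79 and 9.77 FPKM with DMSO, 4.08, 4.08 and 3.83 with HPA-12, 5.53, 4.77 and 5.49 with crenolanib, and 11.2, 9.44 and 14.4 with the combination. Both single compounds gave libraries below every DMSO library, and UROS fell by 1.05 ± 0.14 with HPA-12 and by 0.73 ± 0.14 with crenolanib. Combination and DMSO libraries overlapped, and their difference of 0.27 ± 0.14 did not pass, but it did with a change of 0.91 under median-ratio scaling, 0.40 once mitochondrial genes were dropped from the total and 0.40 without combination library 2.

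UROD (ENSG00000126088), which trims uroporphyrinogen to coproporphyrinogen, had 23.3, 22.7 and 23.5 FPKM with DMSO, 17.0, 15.6 and 16.8 with HPA-12, 15.7, 19.0 and 18.1 with crenolanib, and 78.9, 69.3 and 70.0 with the combination. HPA-12 and crenolanib libraries overlapped below DMSO, and combination libraries stood far above all others. UROD fell by 0.47 ± 0.09 with HPA-12 and 0.38 ± 0.09 with crenolanib, and rose by 1.61 ± 0.09 with the combination, a mean 3.14 times that of DMSO.

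The last enzymes act in or at the mitochondrion. CPOX (ENSG00000080819), which oxidises coproporphyrinogen between the mitochondrial membranes, had 26.8, 27.6 and 27.3 FPKM with DMSO, 10.1, 10.8 and 10.4 with HPA-12, 16.8, 16.1 and 14.0 with crenolanib, and 19.2, 31.8 and 18.8 with the combination. It fell by 1.31 ± 0.16 with HPA-12, the lowest change of the 9 genes there, and by 0.77 ± 0.16 with crenolanib. In the combination 1 library lay above DMSO and the other 2 below, and the change of -0.26 ± 0.16 did not pass. This value was -0.50 and passed without combination library 2, and it was 0.41, a rise that passed, under median-ratio scaling.

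PPOX (ENSG00000143224) oxidises protoporphyrinogen on the inner membrane. Its levels were 3.88, 4.01 and 3.59 FPKM with DMSO, 4.75, 4.18 and 4.60 with HPA-12, 4.63, 4.10 and 4.74 with crenolanib, and 10.2, 15.9 and 17.4 with the combination. Every treated library was above every DMSO library, but the changes of 0.19 ± 0.17 with HPA-12 and 0.18 ± 0.17 with crenolanib did not pass, whereas PPOX rose by 1.65 ± 0.17 with the combination. With HPA-12 the same change passed in the fit of those groups alone and with a spread for each group. In GENCODE release 29, 24.3% of the exon bases of PPOX are shared with B4GALT3 on the opposite strand. No source used here says if counting kept strands apart, so reads of both genes cannot be told apart there. B4GALT3 fell from 13.3 ± 0.336 FPKM with DMSO to 2.85 ± 0.647 with the combination (-1.91 ± 0.15), opposite to PPOX.

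FECH (ENSG00000066926), the ferrochelatase that inserts iron, had 3.16, 3.48 and 3.20 FPKM with DMSO, 3.25, 3.63 and 3.59 with HPA-12, 6.11, 5.18 and 5.80 with crenolanib, and 18.2, 20.2 and 24.6 with the combination. DMSO and HPA-12 libraries overlapped (0.07 ± 0.12, not passed). FECH rose by 0.64 ± 0.12 with crenolanib and by 2.35 ± 0.12 with the combination, whose mean was 6.40 times that of DMSO. FECH and SLC25A39 have processed pseudogenes in the annotation, so reads of these 2 genes could be split with them.

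SLC25A39 (ENSG00000013306) encodes a carrier of the inner mitochondrial membrane that brings in glutathione and is needed for haem synthesis in several organisms. It had 42.3, 41.0 and 42.2 FPKM with DMSO, 27.3, 25.7 and 26.2 with HPA-12, 55.8, 49.9 and 53.7 with crenolanib, and 322, 267 and 306 with the combination. The 4 groups did not overlap, with HPA-12 lowest and the combination highest. It fell by 0.64 ± 0.07 with HPA-12, rose by 0.34 ± 0.07 with crenolanib and rose by 2.80 ± 0.07 with the combination, a mean 7.13 times that of DMSO.

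**Figure D2:**
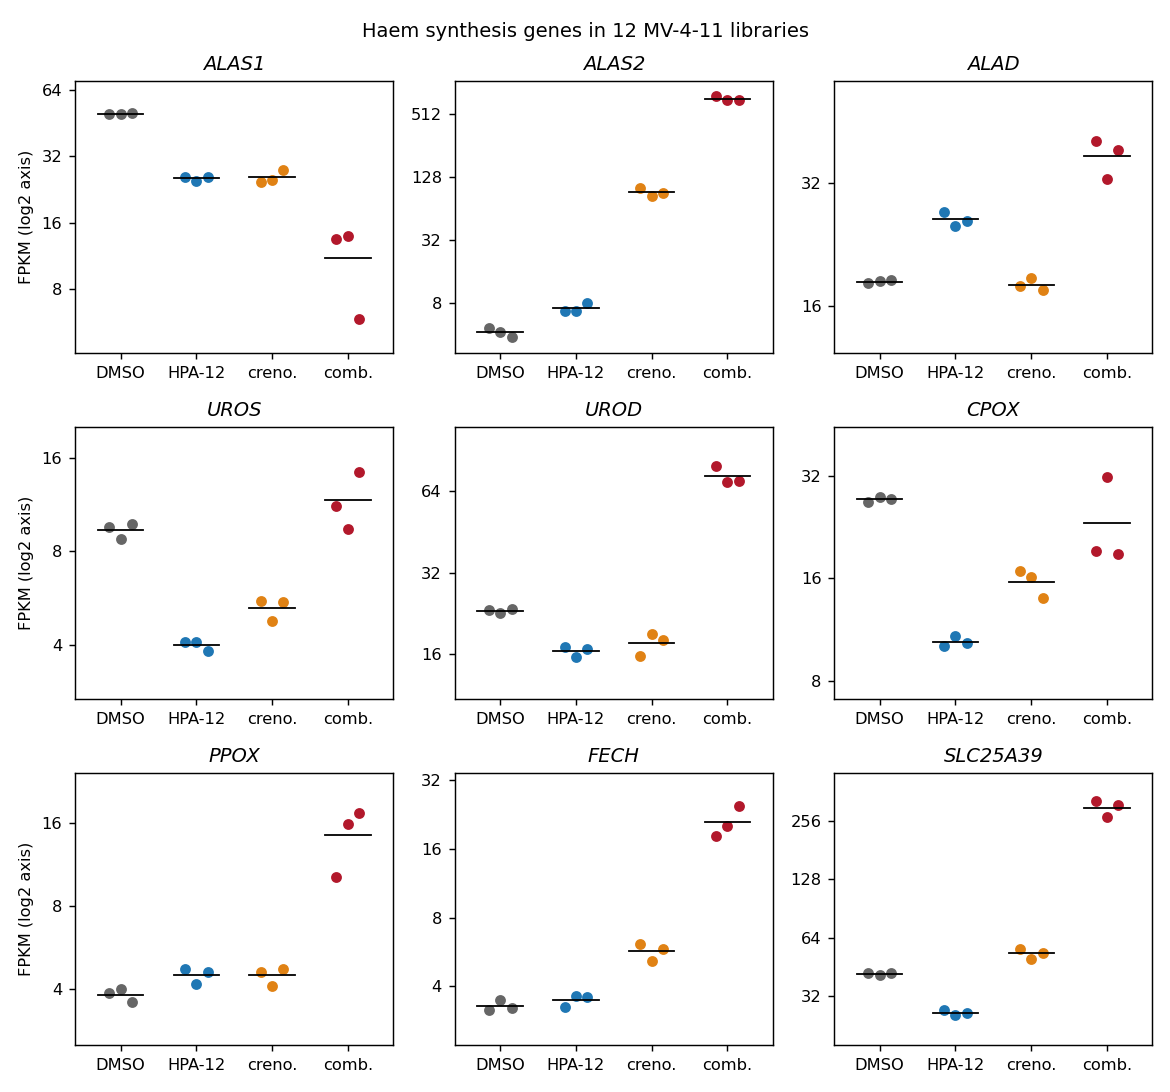
Each panel plots FPKM on a log2 axis (scaled per gene) for the 3 libraries (points) and the mean (line) of DMSO, HPA-12, crenolanib (creno.) and combination (comb.). Combination libraries are the highest for ALAS2, ALAD, UROD, PPOX, FECH and SLC25A39 and the lowest for ALAS1, with ALAS2 at 693 to 747 FPKM and ALAS1 at 5.83 to 13.8 FPKM.

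The order of levels within the pathway changed with it. With DMSO, ALAS1 (49.9 FPKM on average) and SLC25A39 (41.8) led and FECH (3.28) was last, below PPOX (3.83) and ALAS2 (4.22), whose libraries overlapped. With HPA-12 the leading levels were those of SLC25A39 (26.4), ALAD (26.1) and ALAS1 (25.5), whose libraries also overlapped. With crenolanib ALAS2 (90.8) came to the top, above SLC25A39 (53.1) and ALAS1 (25.7). With the combination ALAS2 (712), SLC25A39 (298.5) and UROD (72.7) led, and ALAS1 (11.0) was last, next to UROS (11.7), with overlapping libraries.

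Against DMSO, the question is what each treatment did to the pathway, and the 3 comparisons share the same DMSO libraries. With HPA-12, 2 of the 9 genes rose (ALAS2 and ALAD) and 5 fell (ALAS1, UROS, UROD, CPOX and SLC25A39), where 27.7% of all genes tested were called higher and 23.0% lower. The median change of the 9 was -0.47, beside 0.09 for all genes. With crenolanib, 3 rose (ALAS2, FECH and SLC25A39) and 4 fell (ALAS1, UROS, UROD and CPOX), against 27.4% and 28.9% of all genes, with medians of -0.02 for the 9 and -0.04 for all. With the combination, 6 rose (ALAS2, ALAD, UROD, PPOX, FECH and SLC25A39) and 1 fell (ALAS1), while 14.8% of all genes were called higher and 56.5% lower. The median of the 9 was 1.61 and that of all genes -0.62.

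**Figure D3:**
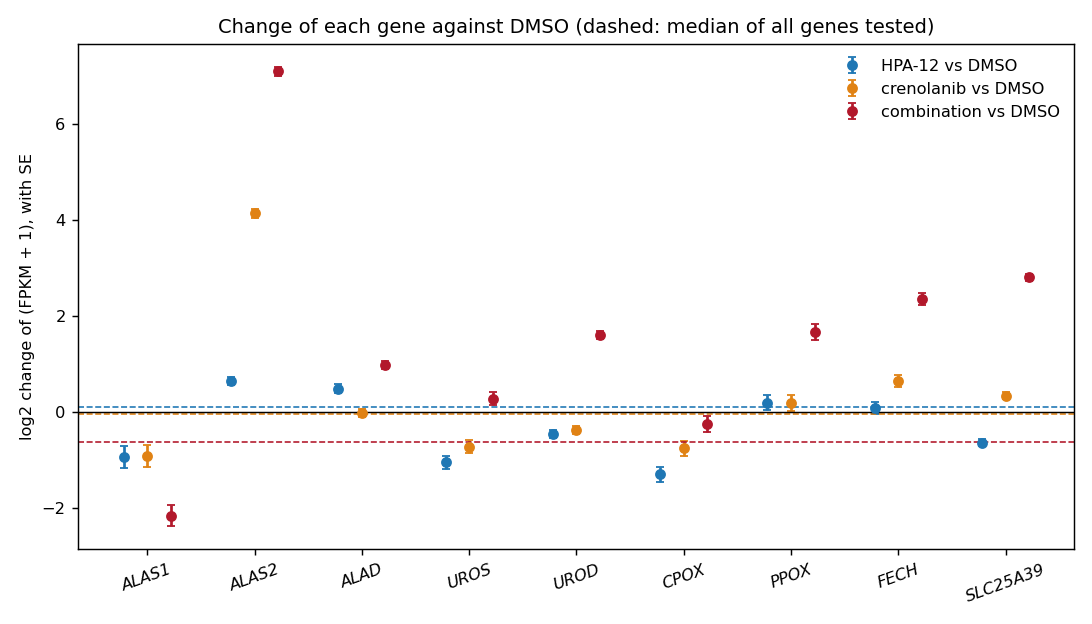
Points are log2 changes of FPKM plus 1 against DMSO with their standard errors for the 9 genes under each treatment, and dashed lines the median change of all genes tested in the same comparison. With the combination 8 of the 9 points lie above the dashed line at -0.62, and ALAS1 lies below it at -2.16.

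Relative to that median of all genes, the combination changes were 7.72 for ALAS2, 3.42 for SLC25A39, 2.98 for FECH, 2.28 for PPOX, 2.23 for UROD and 1.60 for ALAD. Those of UROS and CPOX, which did not pass, were 0.89 and 0.36 above it. Other scalings of the libraries raised the median of all genes to -0.12 (median-ratio and upper-quartile) or to -0.52 (mitochondrial genes dropped from the total). Of the calls over all genes in this comparison 20.8% were higher as deposited and 44.6% under median-ratio scaling. The 6 genes that rose and ALAS1, which fell, were called the same way under each of these 3 scalings, with ALAS1 at -1.52 and FECH at 2.99 under the median ratio. The count of genes that rose was 8 under the median ratio, where UROS and CPOX joined, and 7, with UROS, under each of the other 2. All 3 scalings moved the combination changes upward. The FPKM sum of a library was 254624 to 260318 with DMSO and 493280 to 500569 with the combination. A scaling to equal FPKM sums would lower the combination changes and was not run.

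**Figure D4:**
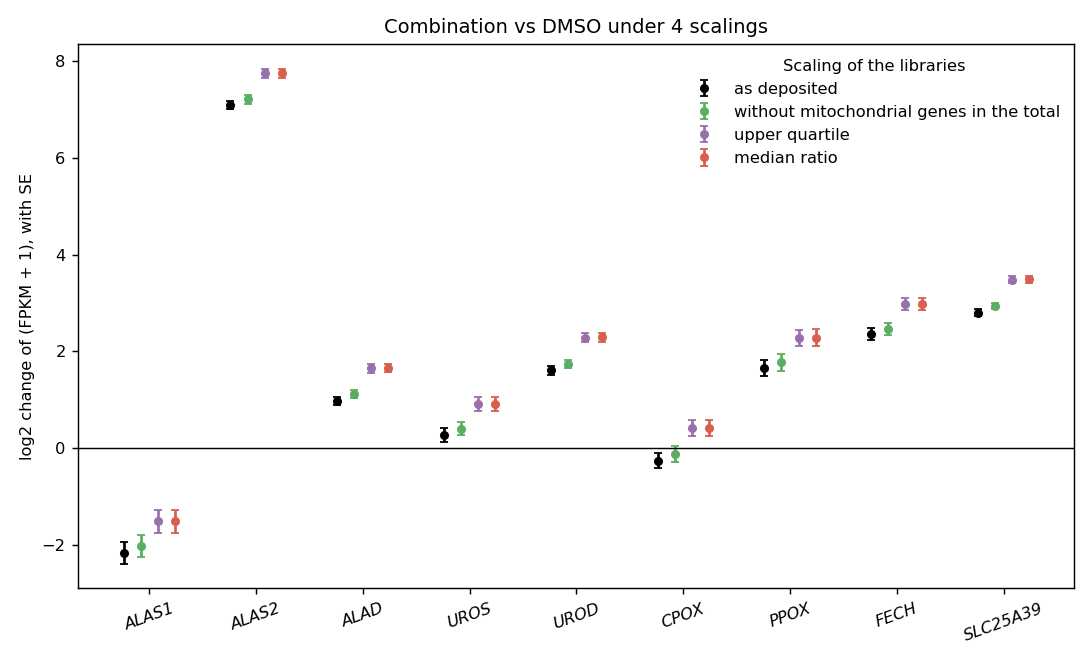
Points are log2 changes of FPKM plus 1 for combination vs DMSO with their standard errors, for the values as deposited and under 3 other scalings of the libraries. CPOX is the gene whose change crosses 0, from -0.26 as deposited to 0.41 under median-ratio scaling.

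Adding crenolanib to HPA-12, or HPA-12 to crenolanib, asked what the second compound did on top of the first. Between combination and crenolanib, 8 of the 9 genes were higher in the combination and ALAS1 was lower, where 8.78% of all genes were called higher and 61.2% lower. The sizes were 2.96 ± 0.09 for ALAS2, 2.46 ± 0.07 for SLC25A39, 1.99 ± 0.09 for UROD, 1.71 ± 0.12 for FECH, 1.47 ± 0.17 for PPOX, 1.00 ± 0.09 for ALAD, 1.00 ± 0.14 for UROS and 0.51 ± 0.16 for CPOX. The CPOX call ended in the fit of these 2 groups alone and without crenolanib library 3. ALAS1 stood at -1.23 ± 0.23, and this call ended under median-ratio (-0.60) and upper-quartile (-0.60) scaling.

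Between combination and HPA-12 the same count of 8 genes was higher and ALAS1 lower, where 14.5% of all genes were called higher and 57.8% lower. ALAS2 was higher by 6.46 ± 0.09, SLC25A39 by 3.45 ± 0.07, FECH by 2.28 ± 0.12, UROD by 2.08 ± 0.09 and UROS by 1.33 ± 0.14. CPOX, at 1.05 ± 0.16, and ALAD, at 0.50 ± 0.09, also passed. ALAS1 was at -1.22 ± 0.23, a call that ended under median-ratio (-0.55) and upper-quartile (-0.56) scaling. Both comparisons use the same combination libraries.

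The single compounds were also set against each other. In crenolanib libraries, 4 of the 9 genes were higher than in HPA-12 libraries (19.5% of all genes) and 1 was lower (21.6%). ALAS2 was higher by 3.50 ± 0.09, SLC25A39 by 0.98 ± 0.07, FECH by 0.57 ± 0.12 and CPOX by 0.54 ± 0.16, and ALAD was lower (-0.51 ± 0.09). The CPOX call ended without any one of HPA-12 libraries 1 and 3 and crenolanib libraries 1 and 2. ALAS1 (0.01 ± 0.23), UROD (0.09 ± 0.09) and PPOX (-0.01 ± 0.17) overlapped between the groups, and UROS (0.33 ± 0.14) did not overlap and did not pass. It passed in the fit of these 2 groups alone, without combination library 2 or 3, and in a fit without all combination libraries.

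HPA-12 changed these genes differently in the presence of crenolanib. UROS, UROD, CPOX and SLC25A39 fell when HPA-12 was compared with DMSO, and were higher in the combination than with crenolanib alone. The interaction, which is the change on adding HPA-12 to crenolanib less the change on adding it to DMSO, was called higher for 8 of the 9 genes and lower for 0, where 15.4% of all genes were called higher and 50.0% lower (as deposited, 23.6% of those calls were higher, and 46.3% under median-ratio scaling). It was 3.11 ± 0.10 for SLC25A39, 2.46 ± 0.12 for UROD, 2.32 ± 0.13 for ALAS2, 2.06 ± 0.19 for UROS, 1.81 ± 0.23 for CPOX, 1.64 ± 0.18 for FECH, 1.28 ± 0.23 for PPOX and 0.52 ± 0.12 for ALAD, beside a median of -0.65 over all genes. ALAS1 had an interaction of -0.29 ± 0.32 that did not pass, and it was 0.37 with the median ratio, 0.36 with the upper quartile and 0.075 without combination library 3. The erythroid markers moved with these values, with 12 of 13 called higher in the interaction and 13 of 13 against DMSO in the combination, and the depth of the combination libraries was the lowest. The part of these in the result was not tested. Of the 13 erythroid markers, 1 was at 0 in all DMSO libraries and 2 in all HPA-12 libraries. Such markers could pass the filter on low values only through other groups.

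**Figure D5:**
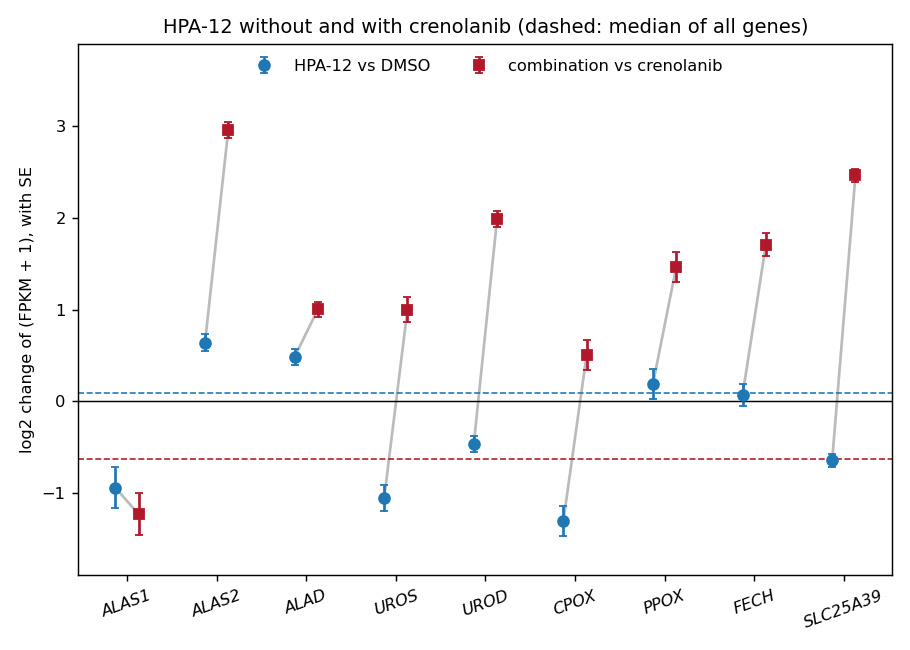
Circles are the log2 change of FPKM plus 1 from DMSO to HPA-12 and squares that from crenolanib to the combination, with their standard errors, and dashed lines the medians of all genes (0.09 and -0.63). For SLC25A39 the change goes from -0.64 to 2.46 and for ALAS1 from -0.94 to -1.23.

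Other genes of the pathway were taken from lists by role. Their counts stand beside the shares of all genes tested, which were 27.7% higher and 23.0% lower with HPA-12, 27.4% and 28.9% with crenolanib, and 14.8% and 56.5% with the combination, and their medians beside 0.09, -0.04 and -0.62 for all genes in these 3 comparisons. Of 10 tested genes of mitochondrial import and export, 1 rose and 4 fell with HPA-12, 1 rose and 3 fell with crenolanib, and 3 rose and 3 fell with the combination (5 and 3 under median-ratio scaling). Their median changes were -0.17, -0.13 and -0.15. SLC25A37, mitoferrin-1, which brings iron into the mitochondria of red cell precursors, had 31.9 ± 2.36 FPKM with DMSO, 19.0 ± 0.597 with HPA-12, 34.3 ± 1.49 under crenolanib and 136 ± 4.21 with the combination. It fell by 0.72 ± 0.07 with HPA-12 and rose by 2.06 ± 0.07 with the combination, as SLC25A39 did. ABCB10, a mitochondrial ABC transporter that binds mitoferrin-1, went from 16.1 ± 0.353 to 37.1 ± 4.03 FPKM with the combination (1.15 ± 0.09). The sideroflexins SFXN4 (-2.44 ± 0.15) and SFXN1 (-1.26 ± 0.13), the latter a serine carrier, fell with HPA-12.

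Iron-sulphur clusters are made in the mitochondrion from the same iron. Of 14 tested genes of their assembly, 1 rose and 7 fell with HPA-12, 2 rose and 5 fell with crenolanib, and 3 rose and 4 fell with the combination (5 and 3 under median-ratio scaling). The medians were -0.54, -0.19 and -0.29. GLRX5, a cluster carrier, fell by 1.25 ± 0.10 with HPA-12 and had a change of -0.11 ± 0.10 with the combination that did not pass and was 0.57, a rise that passed, under median-ratio scaling. ISCA1 fell by 0.94 ± 0.11 with HPA-12 and rose by 0.51 ± 0.11 with the combination. The chaperone HSPA9 fell by 1.21 ± 0.10 and 1.14 ± 0.10 in these 2 comparisons.

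Both synthases use glycine and succinyl-CoA as substrates and pyridoxal phosphate as cofactor. Of 10 tested genes that supply these, 0 rose and 5 fell with HPA-12, 0 rose and 5 fell with crenolanib, and 0 rose and 9 fell with the combination, or 1 and 5 under median-ratio scaling. With crenolanib 2 rose and 5 fell once mitochondrial genes were dropped from the total. The medians were -0.24, -0.49 and -1.17. OGDH, a subunit of the enzyme that makes succinyl-CoA, went from 60.0 ± 1.28 to 12.9 ± 2.48 FPKM (-2.15 ± 0.11) and SHMT2, which makes glycine in mitochondria, from 45.0 ± 1.97 to 14.8 ± 1.31 FPKM (-1.54 ± 0.08) with the combination. PDXK (-1.75 ± 0.13), the pyridoxal kinase, fell too. OGDH, SHMT2 and PDXK also fell under median-ratio scaling, OGDH by 1.49.

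All 3 genes that turn haem into its a and c forms, COX10 (-1.51 ± 0.12), COX15 (-1.45 ± 0.15) and HCCS (-1.46 ± 0.19), fell with the combination, and they fell under median-ratio scaling as well. With HPA-12, 1 of the 3 fell and 0 rose, and with crenolanib 2 fell and 0 rose. With only 3 genes, and 56.5% of all genes called lower in the combination, these counts show nothing particular to them.

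Of 13 tested genes of haem breakdown, transport and sensing, 5 rose and 4 fell with HPA-12, 5 rose and 3 fell with crenolanib, and 6 rose and 5 fell with the combination (7 and 3 under median-ratio scaling). Their medians were 0.05, 0.01 and 0.39. HMOX1, the inducible haem oxygenase, had 10.8 ± 0.117 FPKM with DMSO, 27.3 ± 1.36 with HPA-12, 137 ± 6.48 under crenolanib and 25.8 ± 3.73 with the combination. It rose by 3.55 ± 0.10 with crenolanib and by 1.17 ± 0.10 with the combination, and its interaction was -3.64 ± 0.14 (limma adjusted p = 2.94e-09). BACH1, a repressor of HMOX1 that is released by haem, had 3.25 ± 0.488, 8.49 ± 1.30, 14.6 ± 0.930 and 7.34 ± 0.752 FPKM in the same order. Both genes were highest on average with crenolanib, whereas ALAS2 was highest with the combination. Under median-ratio scaling, BACH1 differed between combination and crenolanib by -0.28, which did not pass. HMOX1 differed there by -1.71, which passed. BLVRB, a biliverdin reductase abundant in red cells, rose by 2.97 ± 0.15 with the combination, to 177 ± 34.7 FPKM, and FLVCR2 fell by 2.17 ± 0.14.

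Of 12 tested regulators of the synthases, 2 rose and 5 fell with HPA-12, 5 rose and 3 fell with crenolanib, and 5 rose and 6 fell with the combination (6 and 4 under median-ratio scaling). The medians were 0.01, 0.06 and -0.10. GATA1 and KLF1 are also among the erythroid markers above. GATA1, the leading transcription factor of red cell precursors, had 0.475 ± 0.0439 FPKM with DMSO, 1.18 ± 0.331 with HPA-12, 4.84 ± 0.0945 under crenolanib and 44.3 ± 2.04 with the combination. KLF1, another erythroid factor, had 1.16 ± 0.162, 1.55 ± 0.210, 7.19 ± 1.79 and 37.7 ± 14.0 FPKM, and TAL1 0.300 ± 0.0963, 0.895 ± 0.244, 6.004 ± 0.842 and 15.3 ± 2.41 FPKM. ALAS2 and these 3 factors thus had the same order of group means. These 3 were named for their small p-values in these data, while 6 of the 12 regulators fell with the combination. The step of KLF1 from DMSO to HPA-12 did not pass under any of the 3 other scalings. It was 0.21 with the median ratio and 0.30 once mitochondrial genes were dropped from the total. The order of DMSO and HPA-12 for KLF1 thus rests on a step that was not called there. Any link of these factors to the ALAS2 level was not tested. LONP1, the mitochondrial protease that degrades ALAS1 protein, fell by 1.68 ± 0.08 with HPA-12, 1.33 ± 0.08 under crenolanib and 1.72 ± 0.08 with the combination, and so was lowered in the same comparisons as the ALAS1 transcript.

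Among 6221 other genes that averaged 5 FPKM or more, likeness to ALAS2 was measured as the root mean square distance between the log2 changes from the DMSO mean over the 9 treated libraries. Among the nearest were HBD (0.27), HBA1 (0.29), SLC4A1 (0.40) and H4C3 (0.62). HBD, the delta-globin gene, had 2.67 FPKM on average with DMSO, 6.53 with HPA-12, 61.3 under crenolanib and 506 with the combination, and SLC4A1, the anion exchanger of the red cell membrane, 2.36, 6.79, 68.1 and 545. HBA1, HBD and H4C3 belong to families of similar genes, so their values are uncertain. For ALAS1 the nearest were AFG3L2 (0.18), DNAJC11 (0.20), MPEG1 (0.22), PMPCA (0.22) and TTC7A (0.22), of which AFG3L2, a mitochondrial protease subunit, had 15.9, 7.46, 8.51 and 2.90 FPKM in the same order of groups.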

How the data were processed

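The authors deposited 1 table of FPKM (fragments per kilobase of gene and per M fragments) for 12 libraries, per the file headers; no source used here names the aligner, counter, build or annotation. The 12 columns were matched to samples by name, with 0 columns left over, and symbols were found by Ensembl identifier. The filter kept genes that reached 1 FPKM in 3 or more libraries. A limma fit of log2(FPKM + 1) followed, with limma 3.58.1, R 4.3.3 and statmod 1.5.0, 1 factor with 4 levels, trend and robust moderation, two-sided p-values adjusted by Benjamini-Hochberg over all 11149 genes, threshold 0.05. Rose, fell and called mean past that threshold.

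The members and lists were chosen with earlier results of these data known. Genes named from each list are up to 4 with the smallest p in a comparison with DMSO, and 5 nearest patterns for ALAS2 and for ALAS1; some genes this rule names are not reported here. Depth was taken as the read number at which the largest share of low values times GENCODE 29 exon length came out whole: 30.6% to 41.4% of low values were whole within 0.01 read, so depths and reads are estimates. Alternatives covered pseudocount, filters, scaling, the groups fitted, spread, replicate block and left-out libraries. The fit was also run on simulated data, with changes added to the crenolanib group alone and compared with DMSO. That run did not cover the combination or the interaction.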

Additional observations from a re-analysis of the deposited data

Results flagged for a closer look

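The change on adding HPA-12 differed between cells with and without crenolanib for 8 of the 9 genes, by the interaction term of the limma fit over all genes (threshold 0.05 after Benjamini-Hochberg adjustment). The interaction was 2.32 for ALAS2, 0.52 for ALAD, 2.06 for UROS, 2.46 for UROD, 1.81 for CPOX, 1.28 for PPOX, 1.64 for FECH and 3.11 for SLC25A39, in log2 units of FPKM plus 1, beside a median of -0.65 over all genes. It kept its sign and its side of the threshold for these 8 genes under every alternative that gave an interaction. The fit of the compared groups alone and the fit without the combination libraries gave none. A scaling to equal FPKM sums, which were highest in the combination, was not among the alternatives. The groups have 3 libraries each, too few to test for single libraries that stand apart. Some calls in other comparisons changed without a single library. CPOX in combination vs DMSO passed without combination library 2, at -0.50.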

How the results depend on the processing

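Over 22 alternative settings, 1305 of 1341 changes of single genes kept their direction and side of the threshold, and 293 of 298 counts of genes called were within 1.5 times the reported count, though not all equal to it. Where a setting changed only the filter, the groups fitted, the spread or the block, the size of a change could not move. The same holds where the library left out belonged to neither compared group, so direction was fixed in these cases. The count of genes lower in the combination was 0 instead of 1 against crenolanib and 0 instead of 1 against HPA-12 with median-ratio or upper-quartile scaling, since ALAS1 no longer passed. With each library left out in turn, the count lower in combination vs DMSO ranged from 1 to 2 and the count higher from 6 to 7, while the count higher ranged from 7 to 8 in combination vs crenolanib and from 3 to 5 in crenolanib vs HPA-12. The count higher in combination vs DMSO was 8 under the median ratio and 7 under the upper quartile and with mitochondrial genes dropped, and that in HPA-12 vs DMSO was 3 in the fit of those groups alone and with a spread for each group. Changes that turned sign were CPOX in combination vs DMSO (0.41 under both the median ratio and the upper quartile, passing with the former), ALAS1 in the interaction (0.37 and 0.36 under these scalings, and from -0.48 to 0.075 with each library left out in turn) and ALAD in crenolanib vs DMSO (0.10 once mitochondrial genes were dropped from the total). In crenolanib vs HPA-12, PPOX was 0.024 and 0.019 under these scalings, 0.0095 with mitochondrial genes dropped, and -0.050 to 0.046 with each library left out in turn, where ALAS1 ranged from -0.044 to 0.046. For these the cause was not tested. Over all genes, combination vs DMSO gave 1652 higher and 6299 lower as deposited, 3036 and 3773 under the median ratio, and 879 and 4318 with a mean of at least 5 FPKM, where fewer genes were tested. HPA-12 vs DMSO gave 3088 and 2564, and 4820 and 3852 in the fit of those groups alone. Combination vs crenolanib went from 979 and 6824 to 2185 and 2927 under the median ratio, combination vs HPA-12 from 1618 and 6446 to 3062 and 3708, and the interaction from 1720 and 5573 to 2831 and 3284. Crenolanib vs DMSO had 3054 higher, and 1615 with a mean of at least 5 FPKM, and crenolanib vs HPA-12 had 2178 and 2411, and 3443 and 4138 in a fit without the combination libraries.

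Same-numbered libraries did not deviate together (r across genes from -0.03 to 0.07 over 18 pairs), so no pairing by number was seen. These values cannot tell if same-numbered libraries were handled together. With the replicate number as a block, the genes called were 2 higher and 5 lower with HPA-12, 3 and 4 with crenolanib, and 6 and 1 with the combination, as without it. A fit without the combination libraries, added after the data were seen, gave 2 and 5 with HPA-12 and 3 and 4 with crenolanib. DESeq2 was not run, since the file holds no counts. ALAS1 values in the combination rest on an estimated 68 to 178 reads per library, and the part of depth in their spread was not tested.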
